A study of Mus musculus with 91 samples.

Results

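The genes described here are 39 genes of the lysosome, chosen by name: 17 hydrolases and lipid-handling proteins, 7 other membrane proteins and the regulator Tfeb, and 14 subunits of the proton pump. They are 39 of the 23956 gene symbols in a table of 91 single bone marrow cells from C57BL/6 mice. Every cell carried the genotype Gfi1-R412X/- Irf8+/-, that is, Gfi1 as an R412X allele opposite a minus allele, with a single intact copy of Irf8, so the comparison includes no wild-type cells. GFI1 represses transcription and is required to make neutrophils, while IRF8 drives monocyte and dendritic cell development. Sorting took Lineage- CD117+ cells without Sca-1, with CD34 and with high CD16/32, labelled either GMP (granulocyte-monocyte progenitors, 46 cells) or CD11b+ GMP-P (45 cells). CD11b is the surface integrin encoded by Itgam. The labels give no age and name no animal, so each population is 1 sample. Cell identifiers also differ between the populations without explanation, so a difference between captures or libraries cannot be told apart from the populations. The SD, range and intervals given here describe cells, and no test between the populations can be made.

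The lysosome is the acidic compartment in which cathepsins, glycosidases and lipid-handling enzymes break down cargo. Its lumen is acidified by the V-ATPase, a rotary pump whose cytosolic V1 sector splits ATP and whose membrane V0 sector carries protons. TFEB and its relatives of the MiT family activate many lysosomal genes through the CACGTG core of their promoters. In granulocyte precursors the same sorting routes serve the primary granules, which are lysosome-related organelles, and CD63 is a known membrane protein of those granules.

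Values are log2(TPM + 1), where TPM is the transcript share of a gene scaled for transcript length to a fixed total per cell. A gene was called higher or lower where the mean over CD11b+ GMP-P cells differed from the mean over GMP cells by at least 1 on this scale. Genes above 0 in 10% or more of the cells of a population, whichever it was, are called measured, and from 50% commonly detected. The populations differed in breadth of detection. GMP cells had 5294 ± 801 genes above 0 and CD11b+ GMP-P cells 4112 ± 953 (SD over cells). The share of TPM in each cell's 50 highest genes was 27.3% ± 1.96 in GMP against 48.9% ± 16.1 in CD11b+ GMP-P. Itgam was above 0 in 13 GMP cells and 34 CD11b+ GMP-P cells, and Kit, which encodes CD117, in 37 and 21. Ly6a, which encodes Sca-1, was above 0 in 43 and 44 cells although both populations were sorted as Sca-1-negative. Late granule genes (Camp, Ngp, Ltf, Lcn2, Chil3, Cd177 and Fcnb) made up a median of 0.0306% of TPM in GMP cells and 9.66% in CD11b+ GMP-P cells. Of 13 macrophage markers, 7 were listed at 0 in every cell of both populations (C1qa, C1qb, C1qc, Cd5l, Marco, Mertk and Timd4), Mrc1 in every GMP cell and Axl in every CD11b+ GMP-P cell. The summed level of the 13 was at most 0.168% in any GMP cell and 0.0619% in any CD11b+ GMP-P cell.

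The promoters of 4 genes are shown because they belong to members that differ in how they stood between the populations, yet each holds the CACGTG core. Lamp1 was higher in CD11b+ GMP-P, Ctsa and Glb1 were lower, and Atp6v0b, a pump subunit, was within 1 of GMP. Each sequence is the 100 bases before the start of the gene, 5′ to 3′ on the strand of the gene, from RefSeq with coordinates of GRCm38.p6, a later build than the authors' mm9. Capitals mark CACGTG.

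Lamp1, chr8:13159061-13159160, plus strand: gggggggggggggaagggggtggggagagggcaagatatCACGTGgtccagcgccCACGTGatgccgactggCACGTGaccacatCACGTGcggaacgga

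Ctsa, chr2:164833673-164833772, plus strand: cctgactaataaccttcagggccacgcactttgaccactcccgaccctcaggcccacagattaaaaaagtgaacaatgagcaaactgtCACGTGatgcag

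Glb1, chr9:114400978-114401077, plus strand: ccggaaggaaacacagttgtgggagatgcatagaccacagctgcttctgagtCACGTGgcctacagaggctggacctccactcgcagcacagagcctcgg

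Atp6v0b, chr4:117887330-117887429, minus strand: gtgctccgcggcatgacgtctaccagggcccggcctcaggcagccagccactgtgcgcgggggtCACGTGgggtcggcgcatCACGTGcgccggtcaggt

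Lamp1 had the most cores of the members, with 4, whose first bases lie at -61, -45, -28 and -15 from the start. CACGTG reads the same on both strands, so 1 search covers both. In the window from 250 bases before the start to 50 bases after it, the core was present for 11 of the 31 members with a promoter entry (35.5%), against 8.09% of 27025 genes and 12.7% of the 3930 commonly detected genes with an entry. Those 11 were Atp6v0b, Atp6v0d1, Atp6v0e, Atp6v1a, Ctsa, Ctsd, Ctsl, Gaa, Glb1, Lamp1 and Mcoln1. The longer form GTCACGTG, searched on both strands and always overlapping the core, was present for 7 of the 31 (22.6%), against 2.55% of genes and 5.55% of the commonly detected ones. The median difference between populations was -1.01 for the 11 genes with the core (from -3.17 to 1.44). It was -1.11 for the 20 without it (from -3.33 to 1.05). Both lie near the median of -1.05 over commonly detected genes and below that of -0.50 over measured genes. The sets were not filtered by detection, and they include Mcoln1, Tfeb, Cd68 and Scarb2, which were not commonly detected. Members without a promoter entry are in neither set, and binding of a factor was not measured.

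Of the 38 members measured (Tfeb was not), 19 were lower in CD11b+ GMP-P, 2 were higher (Lamp1 and Cd63) and 17 were within 1. Among all 10030 measured genes 29.9% were lower and 2.45% higher. Of the 34 commonly detected members the same 19 were lower, or 55.9%, beside 51.8% lower and 3.7% higher among 5133 commonly detected genes, so the share of lower members was near the background. The median difference was -1.09 for these 34 members and -1.05 for the background. The role groups stood on different sides of it. Among the 17 hydrolases and lipid-handling genes 13 were lower (76.5%), with a median of -1.98, and among the 12 subunits of the V0 and V1 sectors 3 were lower (25%), with a median of -0.75. The measured range of every member in one population overlapped its range in the other.

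**Figure D1:**
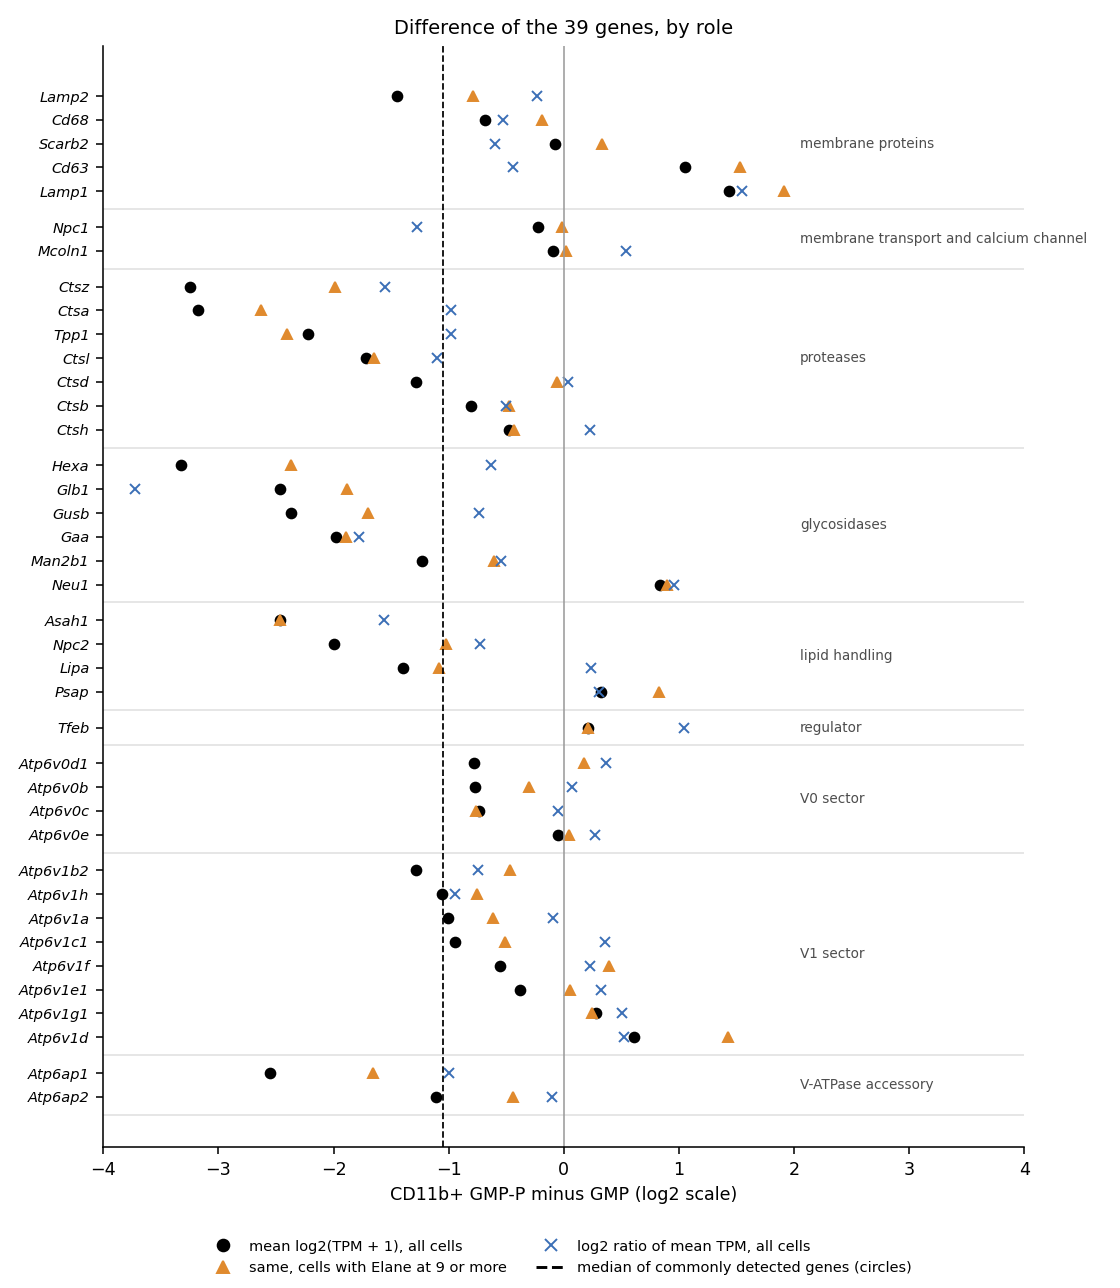
Difference between CD11b+ GMP-P and GMP for each of the 39 genes, grouped by role (vertical axis), on a log2 scale (horizontal axis). Circles are differences of mean log2(TPM + 1) over all cells, triangles the same over cells with Elane at 9 or more, crosses log2 ratios of mean TPM, and the dashed line is the median of commonly detected genes at -1.05. Most hydrolases lie left of the dashed line, most pump subunits right of it, and Lamp1 has all 3 symbols to the right of 1.

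The proteases held the member with the highest TPM among the hydrolases, Ctsz, the carboxypeptidase cathepsin Z. The median log2(TPM + 1) over GMP cells was 9.52 (0 to 11.06), and over CD11b+ GMP-P cells it was 7.08 (0 to 10.97). The means were 8.83 ± 2.56 and 5.59 ± 3.73 (SD, 46 and 45 cells), a difference of -3.24. The highest cells were alike, and more CD11b+ GMP-P cells lay near 0: Ctsz reached 10 TPM in 42 GMP cells but in 31 CD11b+ GMP-P cells. Ctsa encodes cathepsin A, which protects the glycosidases neuraminidase 1 and beta-galactosidase in a complex. Its level had a median of 7.03 (0 to 9.01) in GMP against 0.80 (0 to 9.66) in CD11b+ GMP-P, a difference in means of -3.17. Tpp1, tripeptidyl peptidase 1, had a median of 3.10 (0 to 8.61) in GMP and was listed at 0 in more than 50% of CD11b+ GMP-P cells (0 to 8.92), with a difference of -2.22. The gene was above 0 in 32 of 46 cells of GMP (69.6%, exact 95% interval 54.2% to 82.3%) but in 14 of 45 in CD11b+ GMP-P (31.1%, 18.2% to 46.6%), intervals that cover counting error only. Ctsl (cathepsin L, -1.72) and Ctsd (the aspartic protease cathepsin D, -1.28) were also lower. The cysteine proteases Ctsb (-0.81) and Ctsh (-0.47) were within 1. Ctsd had a mean TPM of 202.9 in GMP against 208.3 in CD11b+ GMP-P. Its lower mean on the log2 scale went with fewer cells reaching 10 TPM, 30 in CD11b+ GMP-P against 40 in GMP. It did not go with a lower mean TPM.

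Among the glycosidases, 5 of 6 were lower (83.3%), beside 51.8% of commonly detected genes. By the log2 ratio of mean TPM 2 of the 6 were lower (33.3%), near the background of 28.5% on that scale. Hexa, the alpha subunit of beta-hexosaminidase, had a median of 7.93 (0 to 10.22) in GMP against 0.77 (0 to 10.62) in CD11b+ GMP-P. Its difference of -3.33 was the largest of the 39, and it reached 10 TPM in 39 GMP and 19 CD11b+ GMP-P cells. In the cells above 10 TPM the median level was 8.27 in GMP against 8.68 in CD11b+ GMP-P, so fewer cells reached 10 TPM, and those that did had a similar level. Glb1, lysosomal beta-galactosidase, was detected (above 0) in 28 cells of GMP (60.9%, 45.4% to 74.9%) against 12 of CD11b+ GMP-P (26.7%, 14.6% to 41.9%). Its median was 1.15 (0 to 10.77) in GMP against 0 (0 to 8.02) in CD11b+ GMP-P, and its means differed by -2.47. Gusb, beta-glucuronidase, had a median of 6.34 (0 to 9.95) in GMP against 1.71 (0 to 9.48) in CD11b+ GMP-P, a difference of -2.37. Gaa (acid alpha-glucosidase, -1.98) and Man2b1 (lysosomal alpha-mannosidase, -1.23) were lower as well. Neu1, the sialidase that works in the complex with the products of Ctsa and Glb1, stood apart from both partners: its mean was 2.41 in GMP against 3.25 in CD11b+ GMP-P, a difference of 0.84. It passed 1 with a pseudocount of 0.1 (1.28), with median-of-ratios scaling (1.35), with scaling without the 50 highest genes (1.28) and in cells of similar detection breadth (1.45).

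In lipid handling, Asah1 (acid ceramidase) had a median of 5.32 (0 to 8.77) in GMP against 0 (0 to 9.26) in CD11b+ GMP-P, with a difference of -2.46. It was above 0 in 36 GMP and 22 CD11b+ GMP-P cells. Npc2, the soluble carrier that hands cholesterol to NPC1, had a median of 7.03 (0 to 8.71) in GMP against 4.70 (0 to 9.15) in CD11b+ GMP-P, a difference of -1.998. Lipa, the lysosomal acid lipase, differed by -1.40 (medians 3.94 and 0.24), yet its mean TPM was 63.8 in GMP against 75.3 in CD11b+ GMP-P. Psap, the precursor of the saposins that present sphingolipids to hydrolases, differed by 0.32. Npc1, the membrane partner of NPC2, was above 0 in 9 GMP cells (highest 7.05) and 8 CD11b+ GMP-P cells (highest 5.43). Mcoln1, the calcium channel TRPML1, was above 0 in 8 GMP cells (highest 4.69) and 4 CD11b+ GMP-P cells (highest 6.20). Both were listed at 0 in most cells of each population, so their differences of -0.22 and -0.09 carry little information.

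Of the 5 membrane proteins, 2 were higher (Lamp1 and Cd63), 1 was lower (Lamp2) and the others were within 1. The 3 past 1 were the commonly detected ones, beside 51.8% lower and 3.7% higher among all commonly detected genes. Lamp1, a heavily glycosylated protein of the limiting membrane, had a median of 3.54 (0 to 8.47) in GMP against 5.08 (0 to 8.95) in CD11b+ GMP-P, with means of 3.18 ± 2.67 and 4.61 ± 3.22 and a difference of 1.44. It was above 0 in 35 and 36 cells, nearly the same number, and reached 10 TPM in 23 and 30. Its mean TPM was 37.4 in GMP against 111 in CD11b+ GMP-P. Lamp2, its paralog with roles in autophagy, lay the other way: the median was 8.19 (0.52 to 10.11) in GMP against 7.09 (0 to 10.08) in CD11b+ GMP-P, a difference of -1.45. Lamp2 reached 10 TPM in 42 and 33 cells, and in those cells the median level was 8.22 and 8.26. Cd63, the tetraspanin of lysosomes and primary granules, had the highest mean level of the membrane proteins, with a median of 9.96 (0 to 13.05) in GMP against 10.03 (0 to 12.04) in CD11b+ GMP-P. Its means were 8.41 ± 4.20 and 9.47 ± 2.21, a difference of 1.05, while its mean TPM was higher in GMP, at 1638 against 1209. Cd63 reached 10 TPM in 36 GMP cells and 44 CD11b+ GMP-P cells, so nearly every cell of the second population had it, while in GMP some cells were near 0 and others among the highest. Cd68, a macrosialin of phagocytes (-0.68, above 0 in 20 and 13 cells), and Scarb2, the receptor that carries glucocerebrosidase (-0.08, 13 and 12 cells), were detected in a minority of cells.

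**Figure D2:**
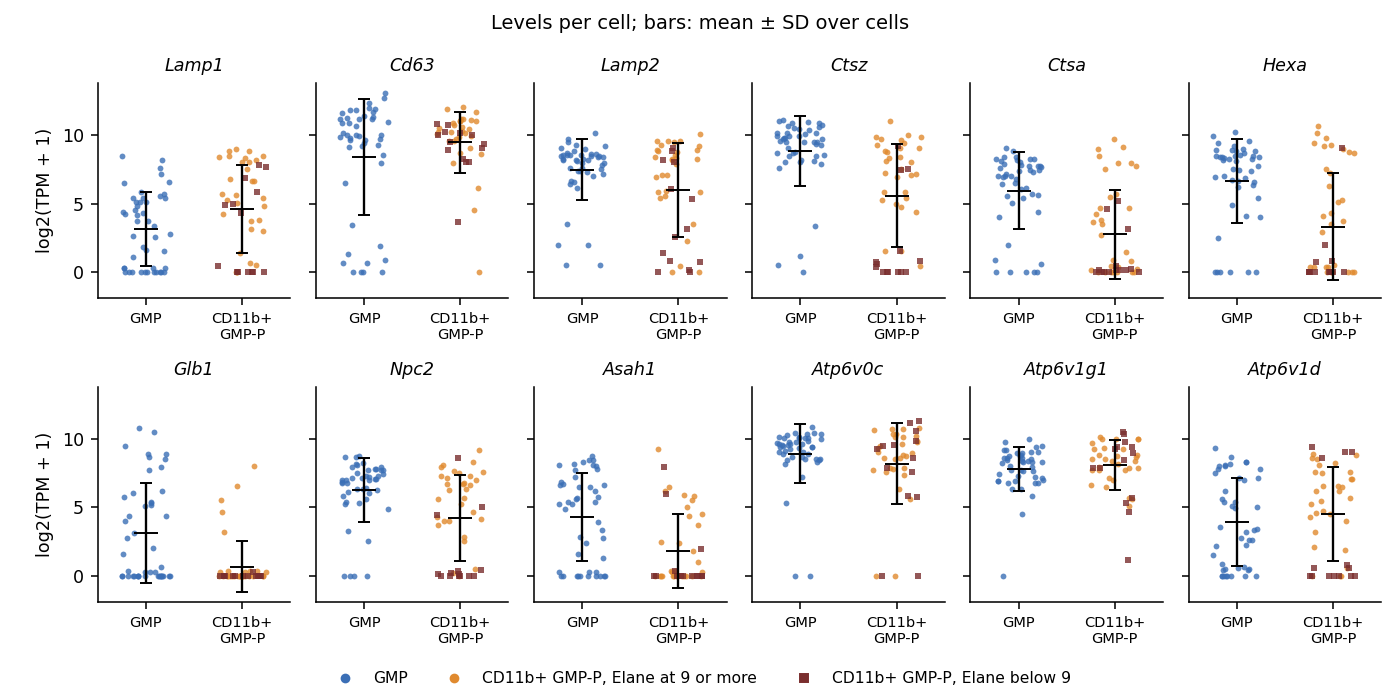
Level of 12 of the genes in each cell, in log2(TPM + 1) on the vertical axis, for 46 GMP and 45 CD11b+ GMP-P cells, with bars for the mean ± SD over cells. Squares are the 14 CD11b+ GMP-P cells with Elane below 9. Ctsz, Ctsa, Hexa and Npc2 split into high cells and cells near 0 in CD11b+ GMP-P. Atp6v1g1 stays high in nearly every cell of both populations. Every pair of ranges overlaps, and most of the ranges start at 0.

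The pump was detected more evenly than the enzymes. Atp6v0c, the proton-carrying proteolipid ring subunit, had the highest mean, with a median of 9.44 (0 to 10.82) in GMP against 8.95 (0 to 11.25) in CD11b+ GMP-P, a difference of -0.73. Its mean TPM was 715 and 688. Atp6v0b, another ring subunit, had a median of 8.57 (0 to 10.50) in GMP against 8.29 (0 to 10.96) in CD11b+ GMP-P, and Atp6v0e, a small membrane subunit, had means of 7.89 ± 2.57 and 7.84 ± 2.67. Atp6v0d1, which couples the ring to the stalk, was lower in level, with a median of 4.95 (0 to 8.64) in GMP against 3.40 (0 to 9.95) in CD11b+ GMP-P. None of these 4 V0 genes was past 1. In the V1 sector, Atp6v1g1, a peripheral stalk subunit, had a median of 8.26 (0 to 9.94) in GMP against 8.48 (1.21 to 10.51) in CD11b+ GMP-P, and it was above 0 in 45 of 46 and 45 of 45 cells. The V1 genes lower by at least 1 were Atp6v1b2 (a catalytic-hexamer subunit, medians 6.64 and 4.58, -1.29), Atp6v1h (a regulatory subunit, 4.63 and 1.52, -1.06) and Atp6v1a (the ATP-splitting subunit, 4.98 and 3.19, -1.01). Atp6v1c1 (-0.94), Atp6v1f (-0.55), Atp6v1e1 (-0.38) and Atp6v1d (0.61) were within 1. Across the pump the means over GMP cells ran from 8.91 for Atp6v0c to 3.86 for Atp6v1h, and neighbours in that order differed by less than their SDs, as the plot of subunits by their mean shows.

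Both accessory subunits were lower, and Atp6ap1 lay outside the range of the core subunits. Atp6ap1, an assembly factor of V0, had a median of 6.996 (0 to 9.94) in GMP against 2.56 (0 to 10.20) in CD11b+ GMP-P, a difference of -2.55. Atp6ap2, also known as the prorenin receptor, had medians of 7.67 (0 to 9.88) and 6.15 (0 to 10.18), a difference of -1.11, close to those of Atp6v1h and Atp6v1a. In the cells of both populations with 3947 to 5645 genes detected, the shared range, Atp6ap2 was higher by 0.77, and the ratio of the median accessory sums went from 0.213 over all cells to 1.09. Of the alternative subunits outside the 39, the V0 a3 subunit Tcirg1 was the most common of its kind, with means of 3.67 ± 3.19 (37 cells) and 3.80 ± 3.34 (31 cells). Atp6v0a1 was above 0 in 19 and 14 cells and Atp6v0a2 in 16 and 16. The tissue-restricted isoforms Atp6v0a4, Atp6v0d2, Atp6v0e2, Atp6v1b1, Atp6v1c2, Atp6v1e2 and Atp6v1g3 were listed at 0 in all 91 cells.

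**Figure D3:**
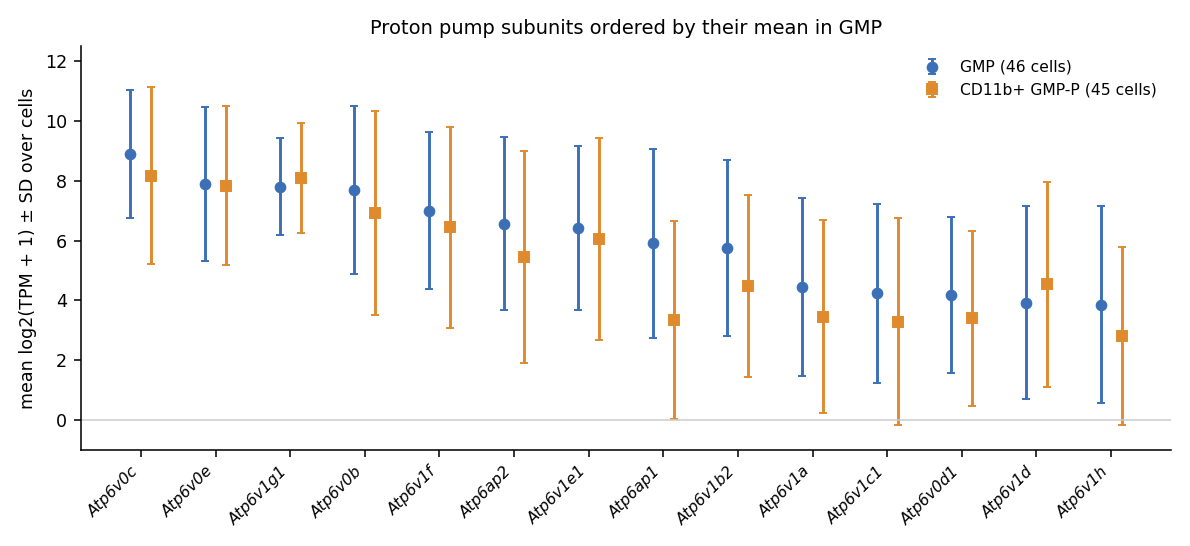
Mean log2(TPM + 1) with SD over cells (vertical axis) of the 14 proton pump genes, ordered by their mean in GMP, for 46 GMP cells (circles) and 45 CD11b+ GMP-P cells (squares). Atp6ap1 shows the widest gap between the populations (5.90 and 3.35), and Atp6v1d and Atp6v1g1 are the 2 genes with a higher mean in CD11b+ GMP-P.

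Summed TPM puts these genes on 1 per-length scale within each cell. All 39 genes together made up a median of 0.855% of a GMP cell's TPM (0.361% to 1.25%) and 0.702% of a CD11b+ GMP-P cell's (0.0947% to 1.13%). The 17 hydrolases and lipid-handling genes made up 0.261% (0.0579% to 0.530%) in GMP against 0.126% (0.00304% to 0.465%) in CD11b+ GMP-P, a ratio of medians of 0.480. The 12 core pump subunits made up 0.302% (0.129% to 0.467%) and 0.322% (0.0604% to 0.752%), a ratio of 1.06. The cells of the populations overlapped broadly. These levels depend on the total: with each cell's 50 highest genes left out of it, the hydrolases made up 0.359% in GMP against 0.279% in CD11b+ GMP-P and the pump 0.408% against 0.625%. For all 39 genes the direction then turned, with 1.17% and 1.41%. On either total the enzymes had the lower median in CD11b+ GMP-P and the pump the higher one. On the full total each pump sector alone had a slightly lower median in CD11b+ GMP-P. These medians were 0.179% in GMP and 0.173% in CD11b+ GMP-P for V0, and 0.126% and 0.118% for V1. Among the enzymes the ratio of medians was 0.470 for proteases, 0.418 for glycosidases and 0.394 for lipid handling, and in the shared range it was 0.714, 0.763 and 0.548.

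The proportion of pump to enzyme within a cell does not depend on how the cell's total is scaled. Its median was 1.09 in GMP (0.582 to 4.17) and 2.43 in CD11b+ GMP-P (0.439 to 31.4). A ratio above 1 was found in 31 of 46 cells in GMP against 39 of 45 in CD11b+ GMP-P, and 14 of the 45 lay above the highest GMP cell. Of these 14 cells, 9 had Elane below 9 and 5 had Elane at 9 or more. The highest ratio among the 5 was 20.4, in a cell with 3084 genes detected. Markers of basophils, mast cells and eosinophils held 13.1% of that cell's TPM. The CD11b+ GMP-P cells with Elane below 9 had 3096 ± 510 genes detected, against 4571 ± 721 in the others. The ratio and its gene sets were formed after the values were seen. In the 26 GMP and 21 CD11b+ GMP-P cells of the shared range the medians were 1.19 and 2.18, and in these cells the medians of the hydrolase sum were 0.268% and 0.178%. The part of detection breadth in the remaining difference was not tested.

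**Figure D4:**
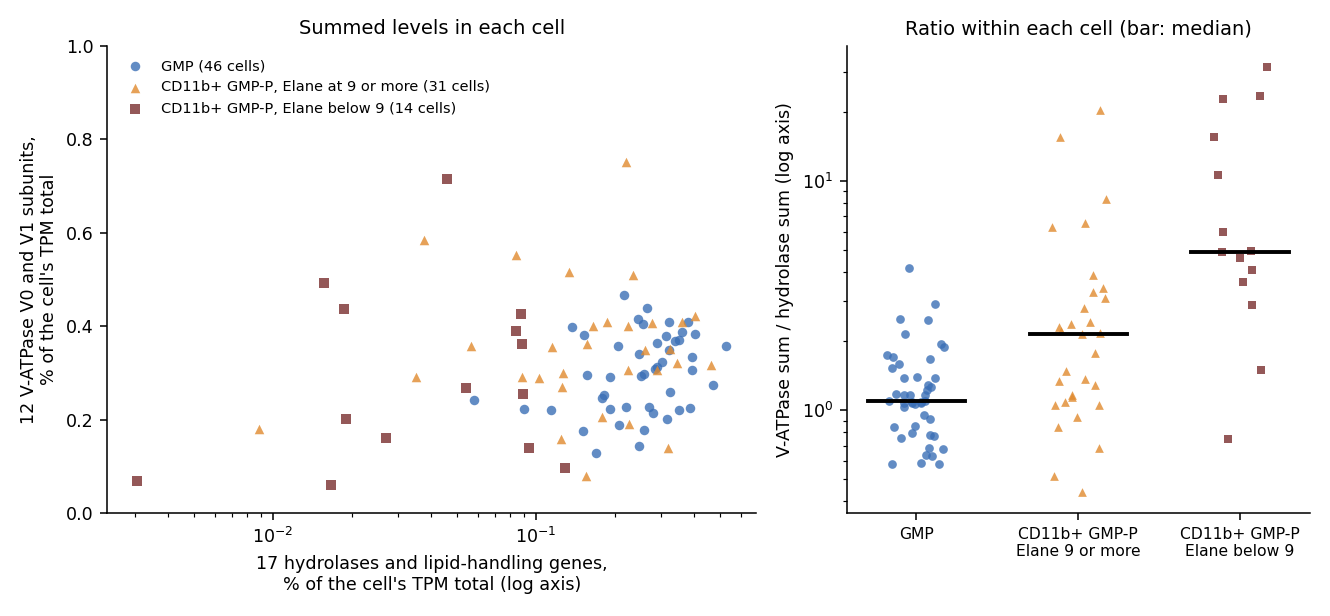
Left, summed TPM of the 12 core pump subunits (vertical axis, percent of the cell's total) against that of the 17 hydrolases and lipid-handling genes (horizontal log axis, percent) in each of 91 cells; right, the ratio of these sums in each cell (log axis) with the median as a bar. CD11b+ GMP-P cells extend to the left at similar heights, and the ratio has medians of 1.09 in GMP, 2.16 in CD11b+ GMP-P with Elane at 9 or more and 4.91 with Elane below 9.

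Cells with high and low Elane, the neutrophil elastase gene of primary granules, differed within CD11b+ GMP-P. Elane was at 9 or more in 31 of these cells and below 9 in 14, a range and not a cell type, with 3 cells within 1 of this value. Late granule genes made up 9.66% to 24.4% of TPM in the 14 cells and 0.00184% to 19.8% in the 31. The hydrolase sum was 0.178% in the Elane-high cells and 0.0502% in the Elane-low cells, and the pump sum was 0.349% and 0.262%. With the 50 highest genes left out of the total, the hydrolase sum was 0.322% and 0.199%, while the pump sum turned, to 0.620% in Elane-high and 0.916% in Elane-low cells. A median of 29 members was detected in the first and 19.5 in the second. The number of genes detected moved the same way, at 4571 ± 721 and 3096 ± 510, and its part in these differences was not tested. The 50 highest genes held 40.7% and 67.1% of TPM. Of the 30 members commonly detected in either set of cells, 24 were higher by at least 1 in Elane-high cells (80%) and 0 lower, beside 62.4% higher and 3.56% lower among 4124 genes.

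Single genes carried this contrast to different degrees. Ctsz had means of 7.20 ± 2.65 in Elane-high and 2.01 ± 3.31 in Elane-low cells, the widest gap of the 39. Npc2 followed with 5.54 ± 2.41 and 1.39 ± 2.66, and Ctsd with 6.34 ± 3.05 and 2.65 ± 3.48. High in both sets were Atp6v1g1 (8.23 ± 1.35 and 7.76 ± 2.64), Cd63 (9.66 ± 2.38 and 9.04 ± 1.79) and Atp6v0c (8.43 ± 2.60 and 7.61 ± 3.64). With the comparison of populations limited to Elane at 9 or more (43 GMP and 31 CD11b+ GMP-P cells), 11 of 17 hydrolases and lipid-handling genes were lower (64.7%), with a median of -1.65, beside 38.1% of commonly detected genes lower, 3.76% higher and a median of -0.72. The core pump had a median of -0.13, with 0 genes lower and 1 higher, Atp6v1d (1.43). Ctsd then differed by -0.06, while Asah1 (-2.46), Ctsa (-2.63), Tpp1 (-2.40) and Lamp1 (1.91) stayed past 1.

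The log2 ratio of mean TPM weights the cells with most transcripts instead of counting every cell alike. On it, 5 of the 17 hydrolases and lipid-handling genes were lower (29.4%), beside 28.5% lower and 5.96% higher among commonly detected genes, so on this scale their share was near the background. Those were Glb1 (-3.73), Gaa (-1.77), Asah1 (-1.56), Ctsz (-1.55) and Ctsl (-1.10). None of the 12 core pump genes was lower, and their median was 0.25 against -0.54 for the background. Lamp1 was at 1.55, and Cd63 changed direction, to -0.44.

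The 3 GMP cells with Elane below 9 differed in part from the other 43. They had 3275 ± 610 genes detected against 5435 ± 599 in the others, and the part of this in the values below was not tested. Markers of basophils, mast cells and eosinophils held 0.185%, 0.997% and 2.45% of TPM in the 3 cells. The median over all GMP cells was 0.0462% and the other 43 held at most 0.699%, so the lowest of the 3 lay within their range. A single CD11b+ GMP-P cell held 13.1%. Cd63 was at 12.51 ± 0.63 in these 3 cells against 8.13 ± 4.20 in the other GMP cells. Glb1 had a median of 10.45 in them and 0.39 in the others. With cells limited to Elane at 9 or more, the log2 ratio of mean TPM was -2.37 for Glb1 and 0.09 for Cd63. In the 3 cells the ratio of pump to enzyme sums lay between 0.582 and 0.772.

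Tfeb itself was above 0 in 1 GMP cell (4.23) and 4 CD11b+ GMP-P cells (highest 5.92), too few to describe a level. Of its relatives in the MiT family, Tfec had means of 3.98 ± 3.47 (32 cells) in GMP against 2.01 ± 2.88 (24 cells) in CD11b+ GMP-P. Tfe3 was above 0 in 11 and 13 cells and Mitf in 7 and 1.

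A wider list of 100 other lysosomal genes was described in the same way. Of these, 82 were measured, 21 were lower and 1 was higher (Fnip1, a partner of folliculin in nutrient sensing, 1.23), with a median of -0.45. This is close to the background of all measured genes, of which 29.9% were lower and 2.45% higher, with a median of -0.50. Among 20 commonly detected other hydrolases 9 were lower (median -0.93), a share below the 51.8% background. The sum over all the other hydrolases had medians of 0.197% in GMP against 0.124% in CD11b+ GMP-P, a ratio of 0.630. In the shared range the medians were 0.207% and 0.182%, a ratio of 0.882. The largest differences were those of Ctss (cathepsin S, -2.74), Scpep1 (a serine carboxypeptidase, -2.54), Ctsc (cathepsin C, which activates granule serine proteases, -2.51), Creg1 (a secreted and lysosomal glycoprotein, -2.42) and Dnase2a (the lysosomal DNase, -2.14). Of 10 genes of sorting to the lysosome 8 were within 1, with a median of -0.31 over the 10. The other two were M6pr, a mannose 6-phosphate receptor (means 7.61 and 5.20), and Gga2, an adaptor for it (-2.10), both lower. Tmem199, a factor of V-ATPase assembly, differed by -2.07.

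Over cells, the number of members detected followed the number of genes detected, with a Spearman rho of 0.47 in 46 GMP cells and 0.79 in 45 CD11b+ GMP-P cells. In CD11b+ GMP-P the hydrolase sum was lower in cells with more late granule transcripts (rho -0.53), and less so within the 31 cells with Elane at 9 or more (-0.28). The pump sum gave -0.27 and -0.15. In GMP, where late granule transcripts were scarce, the signs were opposite, at 0.21 for the hydrolases and 0.46 for the pump. The hydrolase sum in CD11b+ GMP-P also followed the number of genes detected (rho 0.62). Sums of 1 cell share its total and its depth, so these are descriptions without a test.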

How the data were processed

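The authors deposited 1 table of log2 values for 91 cells. With the log undone and 1 taken off every value, the lowest column total was 999999, which makes the values log2(TPM + 1). Per the labels, cDNA was made with the SMARTer kit on a Fluidigm C1 chip and libraries with Nextera XT, read as 150 bp pairs. Per the submitters' processing notes, RSEM (no version) and mm9 were used. Not given in the sources used here: the aligner and annotation. TPM keeps no depth, 80.3% of values were listed at 0, and a housekeeping gene, Rpl13a, was at 0 in 1 cell, so a 0 may be a missed transcript. The libraries mark neither molecules nor strand. The spans of 8 of the 39 genes overlap that of another protein-coding gene in RefSeq (Npc1, Ctsa, Ctsb, Ctsz, Hexa, Glb1, Asah1 and Atp6v1b2). Strand cannot separate reads from a shared stretch, and overlap of exons was not counted.

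Cells took their population from the labels. With no animal named, each population is 1 sample, so no p-value was computed; Clopper-Pearson intervals are at 95%. The 39 genes, their role groups and the wider lists were chosen with earlier results of these data known. Named by rule were the 3 members of each role group with the largest difference, the member with the highest mean, and other lysosomal genes differing by 2 or more; further genes were named after their values were seen. No cell was left out and no doublet caller was run. All 39 genes had a RefSeq row and 31 a promoter entry; those without one were Atp6v1h, Ctsb, Npc1, Ctsh, Atp6v1c1, Atp6v1g1, Atp6v1b2 and Asah1. The alternatives used a pseudocount of 0.1 or 10, log2 ratios of mean TPM, 2 other scalings, other filters and subsets of cells. The calculation was tested on GMP cells redrawn as both populations, with 200 genes changed by known folds. Both draws had the detection breadth of GMP cells, so the test cannot speak to the differing breadth of the real populations. Python 3.11.15, numpy 2.4.6, pandas 2.3.3, scipy 1.17.1 and matplotlib 3.10.9 were used.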

Additional observations from a re-analysis of the deposited data

How the results depend on the processing

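Of the 21 members called, 13 kept their direction under all 10 alternatives that recompute a difference, and 4 stayed past 1 under all of them (Asah1, Ctsz, Glb1 and Lamp1). The count of 19 lower members was 9 with a pseudocount of 10, 6 by the log2 ratio of mean TPM, 11 with median-of-ratios scaling, and 12 both in the shared range of genes detected and with Elane at 9 or more. The count of 2 higher members was 1 with a pseudocount of 10 and by the log2 ratio, 5 with median-of-ratios scaling and 6 in the shared range. The count of 13 lower hydrolases and lipid-handling genes was 8 with a pseudocount of 10 and 5 by the log2 ratio. The count of 3 lower core pump subunits was 5 with a pseudocount of 0.1 or without the 5% of cells with the fewest genes, 1 in the shared range, and 0 with a pseudocount of 10, the log2 ratio, either scaling, or Elane at 9 or more. The log2 ratio within cells with Elane at 9 or more, added after seeing the data, gave 5 lower members, 5 lower hydrolases with a median of -0.35, and 0 lower pump subunits. The median of commonly detected genes moved as well. It went from -1.05 to -0.50 with a pseudocount of 10, -0.54 by the log2 ratio and -0.65 with median-of-ratios scaling. It was -0.44 in the shared range and -0.72 with Elane at 9 or more. Of these genes 51.8% were lower in the main comparison, 28.5% by the log2 ratio and 38.1% with Elane at 9 or more. Under the other settings this share was not computed, so a changed count there cannot be told apart from a general shift.

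Directions turned for Cd63 (-0.44), Ctsd (0.038) and Lipa (0.24) by the log2 ratio; for Ctsd (0.15), Man2b1 (0.0020), Atp6v1b2 (0.32) and Atp6ap2 (0.77) in the shared range; and for Lamp2 (0.027), Ctsd (0.44), Lipa (0.18), Atp6v1a (0.11) and Atp6ap2 (0.10) with Elane at 9 or more and the log2 ratio together. The cause was not tested. Relative to the median of commonly detected genes, the median of the core pump lay from 0.13 to 0.82 above it and that of the hydrolases from 0.94 to 0.02 below it over these alternatives.

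With each cell's 50 highest genes taken out of its total, all members made up 1.17% in GMP and 1.41% in CD11b+ GMP-P. Neu1, within 1 at 0.84, ranged from 0.44 with a pseudocount of 10 to 1.45 in the shared range. At a floor of 10 TPM a CD11b+ GMP-P cell had a median of 20 members. Between Elane-high and Elane-low cells the median pump difference was 1.86 on the log2 scale, above the median of 1.41 over genes commonly detected in either set. By the log2 ratio of mean TPM it was 0.46, below their median of 0.97. The count of 24 members higher in Elane-high cells, of 30, was 17 (56.7%) by the log2 ratio. The share over all genes was not computed on that scale. GTCACGTG in place of CACGTG left 7 of 11 members. The ratio of pump to enzyme sums, with alternatives chosen after seeing the data, was 1.76 for GMP and 3.05 for CD11b+ GMP-P without Ctsz, 0.842 and 2.16 without Atp6v0c, 1.26 and 2.74 with the accessory subunits, and 0.634 and 1.16 with the other hydrolases. No paired analysis was possible because the labels name no animal that would link cells of the populations. No replicate could be left out, since each population is 1 sample.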
